A study of Rattus norvegicus with 24 samples.

Results

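Prevention rats, female rats whose ovaries were removed (OVX) and which then received estradiol (E2), were compared with SHAM rats, which kept their ovaries. The comparison used the 12 hippocampal RNA sequencing libraries that the labels place in these groups, 5 Prevention and 7 SHAM, out of 24 in the series. All animals were females aged 6 months, and the labels give no strain and no estradiol dose. Prevention rats received estradiol for 5 weeks after ovariectomy. The other estradiol group, Treatment, was ovariectomised, given vehicle for 3 weeks before 2 weeks of estradiol (n = 5). OVX rats were ovariectomised and given vehicle for 7 weeks (n = 7). SHAM rats received vehicle for 7 weeks. The weeks of dosing thus differed between Prevention and SHAM, and the time from surgery to tissue collection is not stated. Prevention and SHAM also differ in ovaries and in estradiol at the same time, so the comparison sets an ovariectomised, estradiol-replaced hippocampus against an intact one. Treatment and OVX libraries entered the fit and appear below only where their values bear on a gene of this comparison. Nothing in the labels says whether a library came from 1 animal or a pool, so p-values measure the spread between these libraries.

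Estradiol acts through the nuclear receptors encoded by Esr1 and Esr2, which bind DNA and other transcription factors, and through membrane receptors that signal by kinases and cyclic AMP. In the hippocampus, a region of memory formation, estradiol is known for raising spine density and for shaping synaptic plasticity. Neurons and glia also make their own cholesterol, since plasma lipoproteins hardly cross the blood-brain barrier. Genes of that pathway are switched on together by the transcription factor SREBP2 (gene Srebf2) when membrane sterols run low, and Insig1 holds SREBP2 in the endoplasmic reticulum when sterols are plentiful.

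The Prevention libraries also differed from the SHAM libraries in the level of features such as LOC257642 and in depth, and neither can be told apart from the treatment. LOC257642, a feature not in the reference used here, measured 147173, 159539, 868948, 148495 and 128837 normalised counts in Prevention libraries 1 to 5, against a SHAM range of 19662 to 34469 (median 28058). Treatment libraries 1 and 2 had 728400.0 and 116939, while Treatment libraries 5, 6 and 7 had 23381, 23655 and 19740.4. The 5 Prevention libraries and these 2 Treatment libraries are called the high set (LOC257642 above 16 on the log2 scale), and the other 17 the low set. The sets were defined from values and the labels name no batch. LOC500035 and Rdm1, described below, were also higher in every high-set than in every low-set library. Estimated depth was 47.9 ± 5.48 M (mega) reads in Prevention and 33.5 ± 4.79 M reads in SHAM (SD, exact two-sided permutation p = 0.00253, where 0.00126 is the smallest these group sizes allow). Treatment is the single group with libraries of both sets. A fit with the set as a term therefore subtracts from each Prevention change the difference between 2 and 3 Treatment libraries, which gives a set-adjusted change. Markers of hippocampal neurons were present in every library, with Prox1 of the dentate gyrus at 2551 to 4055 normalised counts in Prevention and 2075 to 4179.9 in SHAM. Markers of neighbouring structures were uneven: Ttr, the thyroxine carrier made by the choroid plexus, ran from 798 to 68774 in Prevention and from 384 to 136652 in SHAM. A score of 5 choroid plexus genes averaged 9.41 ± 1.96 in Prevention and 8.48 ± 2.38 in SHAM (exact permutation p = 0.477), and a score of 5 thalamic genes 8.08 ± 1.07 and 7.53 ± 1.13 (exact permutation p = 0.405). The thalamic score was above 8 in Prevention libraries 1 and 4 and in SHAM library 5. The Treatment sets differed in tissue scores too: the choroid plexus score was 6.36 and 6.15 in high-set libraries 1 and 2, against 9.24, 11.54 and 7.19 in low-set libraries 5, 6 and 7, and the set-adjusted change subtracts this difference as well. The median change of 22 tested choroid plexus and ependymal genes was 0.64, and 2.53 with the set term.

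**Figure D1:**
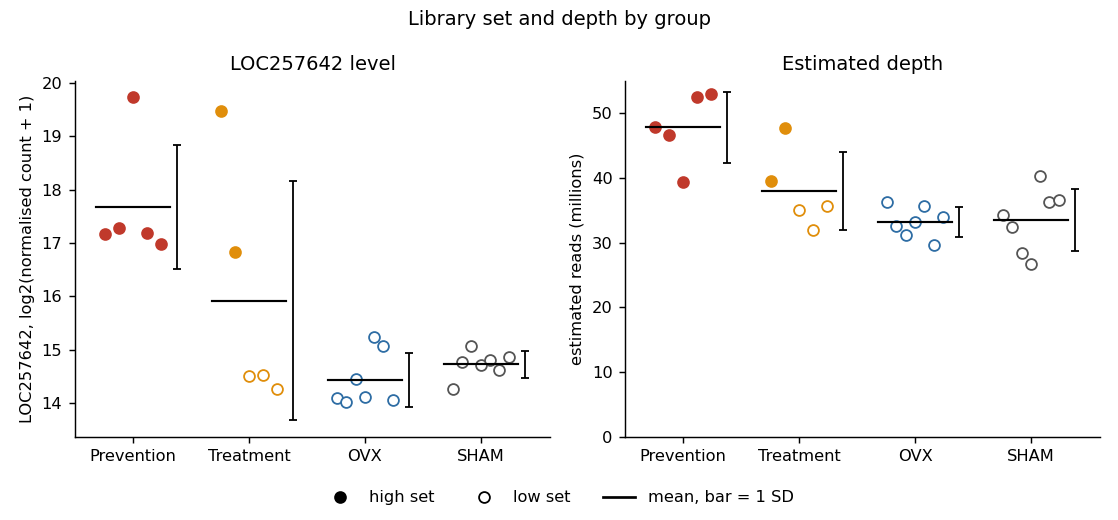
Left, the level of LOC257642 on the log2(normalised count + 1) scale in each of the 24 libraries by group; right, the estimated reads per library in M (mega), with lines for group means and bars for 1 SD. Filled points are the high set and open points the low set. All 5 Prevention libraries are in the high set and all 7 SHAM libraries in the low set, and estimated depth was 39.4 to 52.9 M in Prevention and 26.6 to 40.3 M in SHAM.

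In all, 57 of 16119 tested features (0.354%) were called different between Prevention and SHAM at an adjusted p under 0.05 in limma. Of these 44 were higher (0.273% of those tested) and 13 lower (0.0807%) in Prevention. They included enzymes of cholesterol synthesis (Fdft1, Idi1) and their regulator Insig1, kinases of cyclic AMP signalling (Sik1, Prkaca), transcription factors (Jund, Cebpb, Nkx2-4) and the actin-binding protein gene Marcks on the higher side. On the lower side were Dok7, Sirt7, Pagr1 and Zfyve19. Changes were small: on the log2 scale the median absolute change of the 57 was 0.33, the smallest 0.17 and the largest 3.08, with 8 above 1. In 45 of the 57 the groups did not overlap. Over all tested features 1.57% had every Prevention library above every SHAM library and 0.912% had every one below. An unadjusted p under 0.05 was reached by 2139 features (13.3%), with a higher level in 7.42% and a lower level in 5.85% of those tested, and the median change of all tested features was 0.0029, with 50.9% positive. The count of 57 depended on single libraries. It was 14, 10, 16 and 13 without Prevention library 1, 2, 3 or 4, and 14, 30, 19, 153, 12 and 35 without SHAM library 1, 3, 4, 5, 6 or 7. It was 87 without OVX library 2 and 135 without OVX library 3. Called in every one of these 24 fits were 8 features, among them Sik1, Rdm1, Marcks, Trnp1, Nkx2-4, Rps21 and Dok7.

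With the library set as a term, limma called 0 features (smallest adjusted p = 0.936), while an unadjusted p under 0.05 was reached by 774 (4.80%). The median standard error was then 0.160, against 0.0873 without the term. Of the 57 called features 53 kept their direction, and their median change in the called direction was 0.16 with the term and 0.33 without it. For 12 of them at least 80% of the change remained. An unadjusted p under 0.05 was kept by 13. Those higher in Prevention were Insig1, Fdft1, Idi1, Tiparp, Rps21, Cttnbp2nl, Slc30a1 and LOC100125362, and those lower were Dok7, Sirt7, Pagr1, Zfyve19 and a feature without a symbol. These p-values reuse the Prevention and SHAM values that selected the 57, and Treatment values entered the spread used in that selection. The same holds for the kept directions and changes. Both describe the genes and are no second test. The genes below are given by role.

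**Figure D2:**
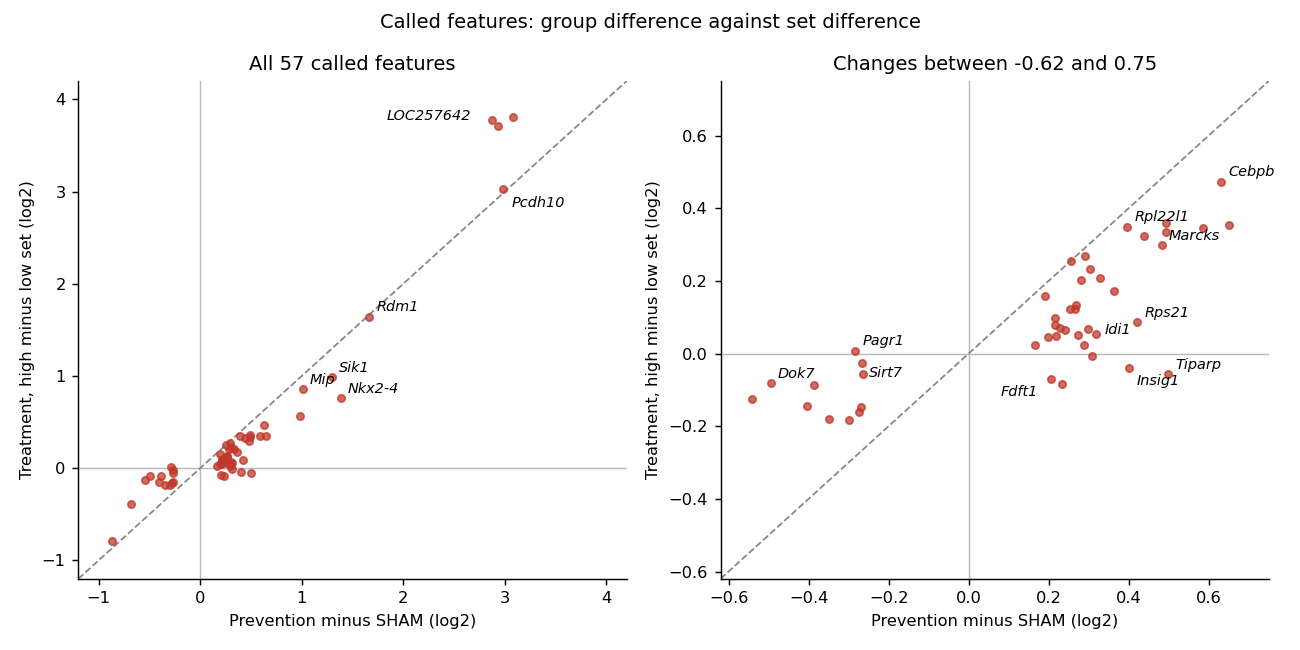
For each of the 57 called features, the log2 change of Prevention against SHAM (horizontal) and the log2 difference between the 2 high-set and the 3 low-set Treatment libraries (vertical); the right panel enlarges the smaller changes and the dashed line marks equal values. Rdm1 and Pcdh10 lie on the line, with 1.66 and 2.98 for the group change, whereas Insig1, Fdft1, Tiparp and Dok7 lie near a vertical value of 0.

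Insig1, a regulator of cholesterol synthesis, and 2 enzymes of the pathway, Idi1 and Fdft1, were higher in Prevention, and the levels of these 3 did not divide the Treatment libraries by set. Of 31 tested genes of cholesterol synthesis, uptake and efflux, in Prevention 3 were called higher and 0 lower, and at an unadjusted p under 0.05 there were 12 with a higher and 1 with a lower level, beside 0.273% called higher, 7.42% higher and 5.85% lower at that p over all features. The called ones were Insig1, the sensor that retains SREBP2, Idi1, isopentenyl-diphosphate isomerase of the early pathway, and Fdft1, squalene synthase, the step that commits isoprenoids to sterols. The list's median change was 0.07, against 0.0029 over all tested features, with 21 of 31 positive. With the set term the median was 0.12 with 27 of 31 positive, against 0.0085 and 52.1% positive over all tested features. The term also raised the medians of cytosolic ribosomal (-0.0336 to 0.13), nuclear respiratory (-0.0242 to 0.12) and myelin genes (-0.0537 to 0.34). The rise with the term is thus not particular to cholesterol genes. The promoters of Insig1 and Idi1 are shown because these genes are classical targets of SREBP2 that moved together here. Each sequence spans 250 bases before to 50 bases after a transcription start in RefSeq (GRCr8, minus strand of the chromosome, printed 5′ to 3′ along the gene), with the CCAAT box, here read as ATTGG, in capitals; this is the site of the factor NF-Y, which acts beside SREBP2.
Insig1, chr4:8057720-8058019: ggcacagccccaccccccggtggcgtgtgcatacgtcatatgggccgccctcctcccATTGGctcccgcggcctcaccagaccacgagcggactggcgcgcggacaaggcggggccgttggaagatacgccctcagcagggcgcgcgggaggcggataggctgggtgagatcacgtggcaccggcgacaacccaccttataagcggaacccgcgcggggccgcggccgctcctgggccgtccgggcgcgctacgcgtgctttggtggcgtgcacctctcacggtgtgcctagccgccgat
Idi1, chr17:66547475-66547774: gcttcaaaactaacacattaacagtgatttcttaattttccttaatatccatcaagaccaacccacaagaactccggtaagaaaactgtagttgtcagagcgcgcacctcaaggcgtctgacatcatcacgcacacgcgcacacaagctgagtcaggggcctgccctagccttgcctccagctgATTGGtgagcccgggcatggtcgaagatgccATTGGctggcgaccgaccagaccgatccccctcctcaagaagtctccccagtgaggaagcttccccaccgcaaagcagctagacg

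The Insig1 window held 1 CCAAT box, starting 193 bases before that start, and the Idi1 window held 2, at 66 and 35 bases before it. A CCAAT box on either strand is found in 37.5% of the 33469 RefSeq promoters of this length. For Insig1 and Sik1 the start used lies inside the outermost end of the annotated gene, and distances are counted from it. These are matches of letters and not measured binding, and no site of SREBP2 itself is marked.

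Insig1 measured 3531, 4149, 3159, 3855 and 2979 normalised counts in Prevention libraries 1 to 5, against 2235 to 3054 (median 2666) in SHAM. Prevention library 5 lay below the highest SHAM library, and the other 4 lay above all SHAM libraries. The means were 3535 ± 482 and 2666 ± 240.3 (SD, n = 5 and 7), a change of 0.40 (SE 0.080, adjusted p = 0.0259). Treatment libraries averaged 3152 in the high set and 3243 in the low set, and the OVX mean was 2727. The set-adjusted change was 0.44 (unadjusted p = 0.00730). The Insig1 mean was above the SHAM mean in Prevention and in both Treatment sets, which hold 2 and 3 libraries. Single libraries crossed: SHAM library 5 had 3054 and Treatment library 1 had 3004, and OVX libraries 4 and 5 had 3095 and 3088. The part of the library set in the change was not tested.

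Fdft1 (chromosome 15, 41588114 to 41616168 in GRCr8) measured 3330.4, 3927, 3319.5, 3681 and 3558 in Prevention, against 2955 to 3201 (median 3071) in SHAM. All Prevention libraries lay above all SHAM libraries. The means were 3563 ± 255 and 3083 ± 84.1, a change of 0.21 (SE 0.041, adjusted p = 0.0272), and the set-adjusted change was 0.28 (unadjusted p = 0.00133). Treatment averaged 3488 in the high set and 3662 in the low set, and OVX 3126.

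Idi1 measured 1173, 1327, 1111, 1101 and 973 in Prevention, against 856 to 966 (median 907) in SHAM, and again the groups did not overlap. The means were 1137 ± 129 and 908 ± 36.1, a change of 0.32 (SE 0.065, adjusted p = 0.0297). Treatment averaged 1125 in the high set and 1082 in the low set, and the set-adjusted change was 0.26 (unadjusted p = 0.0412). Leaving out Prevention library 2, the highest for Insig1, Fdft1 and Idi1, gave changes of 0.34, 0.17 and 0.26. In the 24 fits without 1 library, Insig1, Fdft1 and Idi1 were called in 18, 19 and 16. With replicate number as a block in limma, their adjusted p-values were 0.128, 0.128 and 0.155.

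Other enzymes of the pathway had positive changes that did not pass. Hmgcs1, an early enzyme of sterol synthesis, averaged 10781 ± 685 in Prevention and 9549 ± 391 in SHAM (0.17, adjusted p = 0.114; set-adjusted 0.12). Msmo1, a sterol demethylase, averaged 4168 ± 358 and 3683 ± 88.3 without overlap (0.17, adjusted p = 0.138; set-adjusted 0.14). Sqle, squalene epoxidase, averaged 2736 ± 152 and 2465 ± 144 (0.15, adjusted p = 0.234; set-adjusted 0.22). The list was not uniform. Apoe, the lipoprotein by which astrocytes deliver cholesterol, averaged 109159 ± 10518 in Prevention and 128334 ± 6590.3 in SHAM, every Prevention library being below every SHAM library (-0.24, adjusted p = 0.166; set-adjusted -0.16). Srebf2 itself, picked for its role after its values were seen, averaged 12624 ± 805 and 12027 ± 892 (0.071, adjusted p = 0.652; set-adjusted 0.065). In bulk tissue a different number of cells of a type and a different amount of RNA per cell cannot be told apart.

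**Figure D3:**
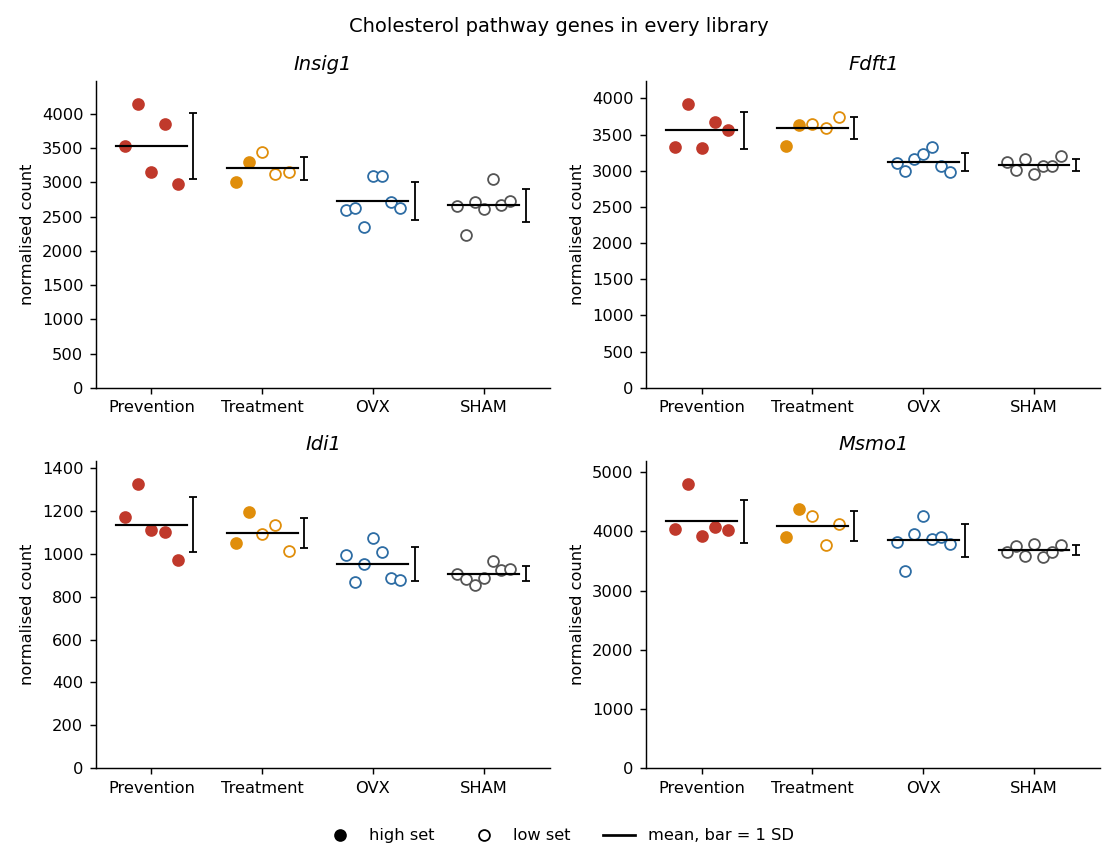
Normalised counts of Insig1, Fdft1, Idi1 and Msmo1 in each library by group, with means as lines and 1 SD as bars; filled points are the high set and open points the low set. Prevention averaged 3535, 3563, 1137 and 4168 and SHAM 2666, 3083, 908 and 3683 normalised counts, and the filled and open Treatment points lie among each other.

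Genes of cyclic AMP signalling were led by Sik1, a salt-inducible kinase that CREB switches on and that then holds back CREB's coactivators. Of 24 tested genes of salt-inducible kinases and the CREB pathway, 2 were called higher and 0 lower, Sik1 and Prkaca. At an unadjusted p under 0.05 there were 6 with a higher and 0 with a lower level. Over all features 0.273% were called higher and 0.0807% lower, and 7.42% were higher and 5.85% lower at that p. The list's median change was 0.13 with 15 of 24 positive, and with the set term it was 0.01 with 12 of 24 positive. The Sik1 promoter is shown because CREB binds elements with the core TGACG there. In the sequence (RefSeq, GRCr8, minus strand of the chromosome, printed along the gene) the 2 cores are in capitals, read as CGTCA, at 191 and 180 bases before the start.
Sik1, chr20:9958597-9958896: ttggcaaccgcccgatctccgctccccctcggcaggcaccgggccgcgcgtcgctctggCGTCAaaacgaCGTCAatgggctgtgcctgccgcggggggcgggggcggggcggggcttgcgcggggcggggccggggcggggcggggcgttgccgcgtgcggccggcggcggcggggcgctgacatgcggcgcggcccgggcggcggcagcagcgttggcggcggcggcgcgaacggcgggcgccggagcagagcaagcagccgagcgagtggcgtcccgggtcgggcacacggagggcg

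TGACG on either strand is found in 21.2% of RefSeq promoters of this length, and the full element TGACGTCA, which overlaps it, in 1.83%; the Sik1 window does not hold the full element.

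Sik1 measured 2098, 2824, 3561, 1969 and 1676 normalised counts in Prevention libraries 1 to 5, against 796 to 1084 (median 944) in SHAM. Every Prevention library was above every SHAM library. The means were 2426 ± 762 and 955 ± 100.5, a change of 1.30 (SE 0.20, adjusted p = 0.00519). Treatment libraries 1 and 2, of the high set, had 1959 and 1690.1, and Treatment libraries 5, 6 and 7, of the low set, had 986, 918 and 853. The Treatment libraries thus divided by set, and the set-adjusted change was 0.31 (unadjusted p = 0.304). A low-set library, OVX library 3, had 1667, while the other OVX libraries lay at or below 1134.

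Prkaca, a catalytic subunit of the cyclic AMP-dependent protein kinase, measured 6160.5, 6528, 6365, 6609.6 and 6185 in Prevention, against 5492 to 5898 (median 5651) in SHAM, without overlap. Its means were 6369.6 ± 200.5 and 5675 ± 147 (0.17, SE 0.037, adjusted p = 0.0433), with a set-adjusted change of 0.14 (unadjusted p = 0.0502). Pde3b, a phosphodiesterase that breaks down cyclic AMP, was called higher as well. It averaged 793 ± 14.1 and 661 ± 35.8 (0.27, adjusted p = 0.0259), and its set-adjusted change was 0.14.

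Immediate early genes, which neuronal activity and CREB switch on within minutes, were mostly on the higher side. Of 33 tested members 28 had a positive change, 1 was called higher and 0 lower, 9 had an unadjusted p under 0.05 with a higher level, and the median change was 0.19. Over all features 0.273% were called higher, 7.42% were higher at that p and 50.9% had a positive change. With the set term the median was 0.10 and 20 of 33 were positive. The called gene was Jund, an AP-1 transcription factor, with 6006, 5920.0, 5071, 5756 and 5025 in Prevention, against 4101 to 5101 (median 4435) in SHAM. Prevention libraries 3 and 5 lay within the SHAM range and the other 3 above it. Jund averaged 5556 ± 472 and 4509.9 ± 306 (0.30, SE 0.065, adjusted p = 0.0384), and its set-adjusted change was 0.23. Egr1, a zinc-finger factor of synaptic plasticity, averaged 4586 ± 1419.5 in Prevention and 2996 ± 416 in SHAM (0.57, adjusted p = 0.128; set-adjusted 0.20), and Egr2 averaged 209 ± 109 and 86.5 ± 15.7 (1.09, adjusted p = 0.132; set-adjusted 0.21). Neither passed, and in Prevention library 5 both lay within the SHAM range. Bdnf, a neurotrophin of the same regulation, averaged 1302 ± 238 and 1158 ± 107 (0.16, adjusted p = 0.639; set-adjusted 0.098). Cebpb, a transcription factor of inflammation and of long-term memory, was called higher outside this list. It measured 1159, 1020.5, 1075, 833 and 947 in Prevention, against 549.8 to 819 (median 633) in SHAM (0.63, SE 0.13, adjusted p = 0.0274), and 717 and 1013 against 599, 629 and 614 between the Treatment sets, which left a set-adjusted change of 0.16.

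Glucocorticoid-responsive genes included Sgk1 and Pdk4, whose levels lay higher in most Prevention libraries but missed the threshold. Of 22 tested members 0 were called (0.354% over all features). An unadjusted p under 0.05 was reached by 7 with a higher level and 1 with a lower level (7.42% and 5.85% over all features). The list's median change was 0.13 (0.14 with the set term, and 0.087 without SHAM library 6). Sgk1, a serum- and glucocorticoid-induced kinase, measured 7045, 8641, 4994, 5970.4 and 4044 in Prevention, against 2553 to 4913 (median 3112) in SHAM. Prevention library 5 lay within the SHAM range and library 3 just above it. The change was 0.79 (SE 0.19, adjusted p = 0.0624), and the set-adjusted change was 1.13 (unadjusted p = 0.00389). Pdk4, which shuts off pyruvate dehydrogenase, measured 282, 345, 182, 285 and 146 in Prevention, against 73.4 to 177 (median 128) in SHAM (0.91, SE 0.23, adjusted p = 0.0799), with a set-adjusted change of 1.47 (unadjusted p = 0.00204). Per1, a clock gene with a glucocorticoid-responsive promoter, averaged 3678 ± 859.7 and 2794 ± 228 (0.37, adjusted p = 0.152; set-adjusted 0.32). The set-adjusted changes of Sgk1 and Pdk4 exceed the unadjusted ones because the low-set Treatment libraries had the higher means, 8148 against 6333 for Sgk1 and 496 against 331 for Pdk4.

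Several other genes were called higher, and their levels differed little between the high and the low Treatment set. In each gene of this paragraph both Treatment sets averaged above the SHAM mean. Tiparp, an ADP-ribosyltransferase induced by the aryl hydrocarbon receptor, measured 451, 564, 412, 422 and 310.4 in Prevention, against 285 to 323 (median 299.9) in SHAM. All but Prevention library 5 lay above the SHAM range. Its change was 0.50 (SE 0.097, adjusted p = 0.0246) and its set-adjusted change 0.55 (unadjusted p = 0.00587), with Treatment means of 413 in the high set and 429.5 in the low set and an OVX mean of 341. Slc30a1, the zinc exporter of the plasma membrane, averaged 1077 ± 56.3 in Prevention and 882 ± 61.1 in SHAM without overlap (0.29, adjusted p = 0.0384; set-adjusted 0.27). Cttnbp2nl, a cortactin-binding protein of the actin skeleton, averaged 1533 ± 102 and 1303 ± 45.5 (0.23, adjusted p = 0.0326; set-adjusted 0.32). In Cttnbp2nl 1 Prevention library lay within the SHAM range. Pnrc1, a coactivator of nuclear receptors, averaged 1407 ± 41.4 and 1191 ± 59.5 without overlap (0.24, adjusted p = 0.0318; set-adjusted 0.18).

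Rps21, a protein of the small ribosomal subunit, was called higher while its list was not shifted. Rps21 measured 1469, 1510.3, 1387, 1459 and 1489.8 in Prevention, against 986 to 1268 (median 1109.7) in SHAM, without overlap (0.42, SE 0.067, adjusted p = 0.00559; set-adjusted 0.34, unadjusted p = 0.0133). Of 59 tested cytosolic ribosomal protein genes 23 had a positive change, 1 was called higher and 0 lower, and the median change was -0.0336. Over all features 50.9% had a positive change, 0.273% were called higher and 0.0807% lower. With the set term 57 of 59 were positive and the median was 0.13, so the direction of this list depends on the term. Rps24, of the small subunit too, averaged 3258 ± 104 in Prevention and 3769 ± 152 in SHAM (-0.21, adjusted p = 0.111), and its set-adjusted change was 0.075. Rpl22l1, a paralog of a large-subunit protein, was called higher at 1124 ± 50.9 against 856 ± 73.1 (0.40, adjusted p = 0.0246), with a set-adjusted change of 0.048. Ribosomal protein genes have near-identical pseudogene copies, so their levels are uncertain where reads are shared between copies.

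Other called genes moved with the library set. Marcks, a substrate of protein kinase C that links the membrane to actin and is abundant in growth cones and spines, measured 4956, 5194, 4638, 4871 and 3976 in Prevention, against 3021 to 3734 (median 3335) in SHAM. The groups did not overlap (0.48, SE 0.075, adjusted p = 0.00519). Treatment libraries 1 and 2 had 4368 and 4049 and libraries 5, 6 and 7 had 3692, 3454 and 3135, and the set-adjusted change was 0.18 (unadjusted p = 0.144). Trnp1, a nuclear protein of neural progenitors, averaged 1369.6 ± 213 and 905 ± 56.6 without overlap (0.59, adjusted p = 0.00736; set-adjusted 0.24).

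Rdm1, which binds DNA in recombination repair, followed the set closely. It measured 1436, 1220.1, 1192, 1117 and 1169 in Prevention, against 339.9 to 449 (median 374) in SHAM (1.66, SE 0.23, adjusted p = 0.00281, the smallest of all features). Treatment libraries 1 and 2 had 1299 and 1227, in the Prevention range, and libraries 5, 6 and 7 had 398, 427 and 387, in the SHAM range, so the set-adjusted change was 0.019. Pcdh10, a protocadherin of cell adhesion, averaged 130295 ± 39842 in Prevention and 17165 ± 7856 in SHAM (2.98, adjusted p = 0.0274). In Treatment it had 52221 and 58874 in the high set and 6802, 6596 and 6938 in the low set. Its set-adjusted change was -0.050. OVX libraries 3 and 4, of the low set, had 100486 and 50640. Mip, the aquaporin of the eye lens, averaged 1122 ± 328 and 540.0 ± 58.9 (1.01, adjusted p = 0.0246; set-adjusted 0.15). OVX library 3 had 1025 normalised counts of Mip, within the Prevention range of 761 to 1551. LOC257642 (2.93) defines the set and LOC500035 (2.88) was higher in every high-set than in every low-set library, so their set-adjusted changes are no test.

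Nkx2-4, a homeobox transcription factor, measured 81.3, 63.3, 46.9, 47.6 and 44.7 in Prevention, against 16.1 to 27.7 (median 22.0) in SHAM, without overlap (1.38, SE 0.22, adjusted p = 0.00519; set-adjusted 0.62, unadjusted p = 0.0982). It was the single called member of 20 tested genes of the thalamus, habenula and neighbouring regions (0.273% called higher over all features). Of the 20, 18 had a positive change (50.9% over all features), and the list's median was 0.48. That median was 0.92 with the set term, 0.23 without Prevention library 4 and 0.67 without SHAM library 5. The summed level of that list ran from 10025 to 26282 normalised counts in Prevention and from 8925 to 27332 in SHAM. SHAM library 5, with the highest thalamic score (10.07), had 16.1 normalised counts of Nkx2-4. Prevention libraries 1 and 4, with scores of 8.98 and 9.47, had 81.3 and 47.6. Treatment libraries 1 and 2 of the high set had 29.7 and 29.1, and low-set libraries 5, 6 and 7 had 13.6, 16.7 and 21.5. The part of neighbouring tissue in the change of Nkx2-4 was not tested. No called feature kept an adjusted p under 0.05 when all 6 libraries of the series with a thalamic score above 8 were left out (smallest adjusted p = 0.116 in limma, 1969 features with an unadjusted p under 0.05), and all 57 kept their direction.

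**Figure D4:**
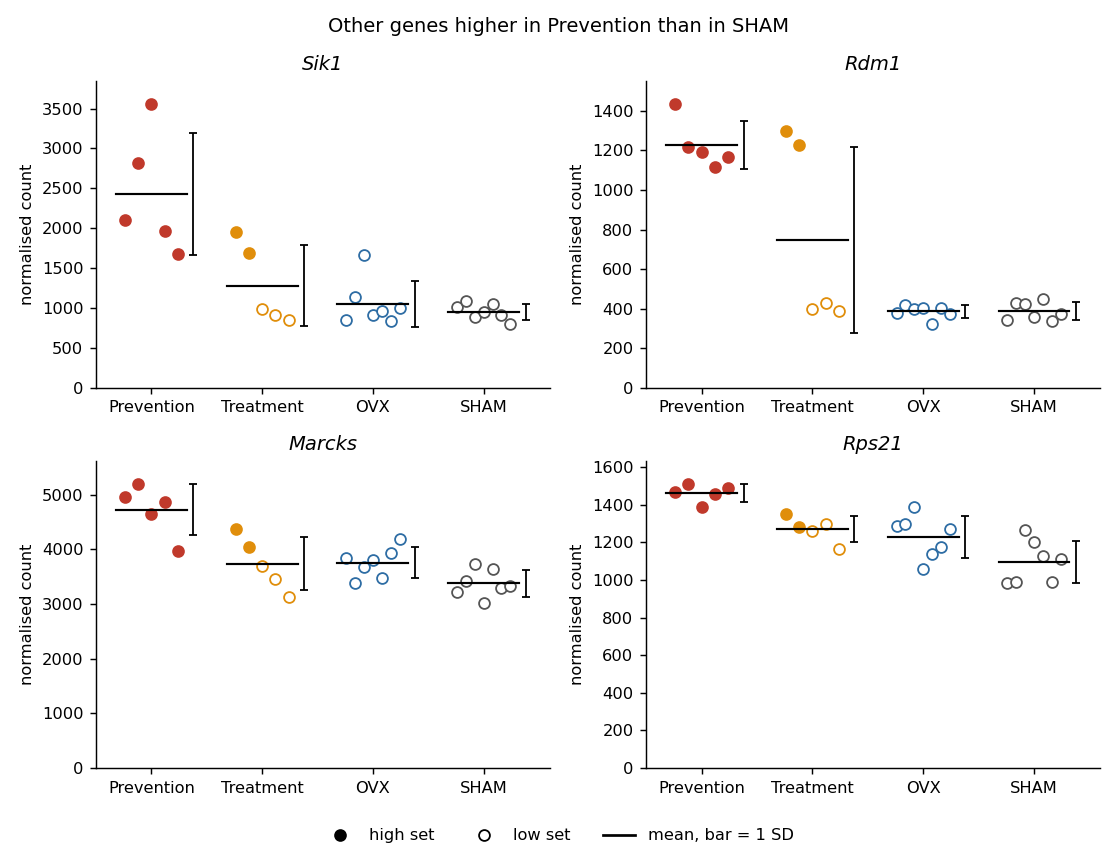
Normalised counts of Sik1, Rdm1, Marcks and Rps21 in each library by group, with means as lines and 1 SD as bars; filled points are the high set and open points the low set. The filled Treatment points of Sik1 and Rdm1 stand with Prevention, at 1690.1 and 1959 for Sik1 and at 1227 and 1299 for Rdm1, and the open ones with SHAM.

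Genes called lower in Prevention were fewer, and 5 of the 13 kept an unadjusted p under 0.05 with the set term. Dok7, the adaptor that activates the muscle-specific kinase MuSK at the nerve-muscle synapse, measured 192, 195, 182, 199 and 189 in Prevention, against 240.4 to 326 (median 257) in SHAM. Every Prevention library lay below every SHAM library, and the Prevention values spread little. The means were 191 ± 6.32 and 271 ± 28.7, a change of -0.49 (SE 0.086, adjusted p = 0.0130), and the set-adjusted change was -0.41 (unadjusted p = 0.0178). Sirt7, a deacylase of the nucleolus that depends on NAD, measured 762, 671, 707, 677 and 776 in Prevention, against 788 to 926 (median 860.3) in SHAM, without overlap (-0.27, adjusted p = 0.0246; set-adjusted -0.24, unadjusted p = 0.0218). Sirt7 averaged 734 in the high-set and 746 in the low-set Treatment libraries and 857 in OVX. Pagr1, a subunit of the MLL3 and MLL4 histone methyltransferase complexes, averaged 809 ± 60.7 in Prevention and 984 ± 51.7 in SHAM without overlap (-0.28, adjusted p = 0.0326; set-adjusted -0.29, unadjusted p = 0.0155). Zfyve19, which delays the final cut of cell division, averaged 484 ± 11.8 and 636 ± 65.2 without overlap (-0.39, adjusted p = 0.0246; set-adjusted -0.30, unadjusted p = 0.0427). Mpv17, of the inner mitochondrial membrane, averaged 489 ± 23.9 and 591 ± 43.1 (-0.27, adjusted p = 0.0496; set-adjusted -0.12), and Cby1, an inhibitor of beta-catenin, 507 ± 35.8 and 646 ± 52.5 (-0.35, adjusted p = 0.0370; set-adjusted -0.17).

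The receptors through which estradiol and progesterone act were not called. Of 15 tested receptors and partners 0 were called and 0 had an unadjusted p under 0.05, with a median change of 0.05, and -0.0598 with the set term. Over all features 0.354% were called and 13.3% had an unadjusted p under 0.05. Esr1 measured 83.6, 33.4, 87.4, 145 and 137 in Prevention, against 57.7 to 104 (median 95.2) in SHAM, and the groups overlapped widely (0.060, SE 0.33, adjusted p = 0.963; set-adjusted -0.37). Esr2 averaged 25.7 ± 6.92 and 27.8 ± 9.35 (-0.080, SE 0.27, adjusted p = 0.936; set-adjusted -0.060), Gper1, the membrane estrogen receptor, 78.2 ± 10.4 and 72.7 ± 11.2 (0.11, SE 0.15, adjusted p = 0.823; set-adjusted 0.35), and Pgr, the progesterone receptor and a classical estradiol target, 476 ± 54.2 and 445 ± 60.0 (0.10, SE 0.12, adjusted p = 0.766; set-adjusted 0.18). With standard errors of 0.12 to 0.33, changes of moderate size in these receptors were not detectable here. Of 27 tested estrogen-responsive genes, Pgr, Bdnf and Egr1 included, 0 were called and 21 had a positive change (0.354% and 50.9% over all features). Their median change was 0.10, with 0.08 under the set term and 0.055 without Prevention library 4.

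Immune gene lists held no called gene in this comparison, where 0.354% of all tested features were called. Over all features 50.9% had a positive change. Among 11 tested genes of MHC class II presentation, by which microglia and infiltrating cells show antigen, 2 had a positive change and the median was -0.440, but with the set term the median was 0.10 and 7 of 11 were positive. Cd74, the class II invariant chain, measured 739, 406, 564, 704 and 714 in Prevention, against 565 to 1387 (median 1011) in SHAM (-0.64, SE 0.22, adjusted p = 0.194; set-adjusted 0.037). The SHAM values alone spanned more than the difference between the means. RT1-Ba, a class II alpha chain, averaged 114 ± 34.1 and 189 ± 51.9 (-0.73, adjusted p = 0.182; set-adjusted 0.34). Interferon-induced genes had 12 of 39 positive and a median of -0.0476, and -0.0113 with the set term. Lgals9, a galectin in that list, averaged 479 ± 28.6 in Prevention and 593 ± 69.4 in SHAM (-0.30, adjusted p = 0.154; set-adjusted -0.13). Of 27 microglial genes 13 were positive with a median of -0.00079, and with the set term 21 were positive with a median of 0.14. Cd68, of lysosomal membranes, averaged 45.1 ± 7.91 and 58.8 ± 11.1 (-0.37, adjusted p = 0.240; set-adjusted -0.27). Aif1, a microglial marker, averaged 396 ± 43.3 and 402 ± 41.8 (-0.020, adjusted p = 0.949; set-adjusted 0.19), the complement component C3 1585 ± 389 and 1708 ± 355 (-0.12, adjusted p = 0.807; set-adjusted 0.13), and Gfap, of astrocytes, 36713 ± 2444 and 39914 ± 3805 (-0.12, adjusted p = 0.585; set-adjusted -0.20).

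Without the set term, the glutamate, GABA, nuclear respiratory and myelin lists had medians from -0.0537 to 0.046, against 0.0029 over all features. Over all features 50.9% had a positive change and 0.354% were called. Of 40 glutamate receptor and scaffold genes 20 were positive and 0 called, and Grin2b, an NMDA receptor subunit, measured 3189, 3497, 5850.4, 3206 and 3212 in Prevention, against 2004 to 3287 (median 2655) in SHAM (0.46, adjusted p = 0.214; set-adjusted 0.016). Library 3 stood alone among the Prevention values of Grin2b. Of 21 GABA genes 16 were positive and 0 called; Gabra4, a subunit of extrasynaptic GABA-A receptors, averaged 5181 ± 758 and 4122 ± 287 (0.32, adjusted p = 0.0594; set-adjusted 0.32, unadjusted p = 0.0361). Of 70 nuclear subunits of oxidative phosphorylation 26 were positive with a median of -0.0242, and with the set term 69 were positive with a median of 0.12; none was called in either fit. Atp5i, of ATP synthase, averaged 2044 ± 124 in Prevention and 2411 ± 93.4 in SHAM (-0.24, adjusted p = 0.147; set-adjusted 0.019). Myelin genes had 7 of 24 positive and a median of -0.0537, and 23 of 24 positive and a median of 0.34 with the set term. Over all 38 lists, which name 1040 genes, 5 held a called gene and 33 held none. Of the 57 called features, 0.354% of those tested, 8 were members of a list. The median of 14 lists changed sign with the set term. Leaving out 1 library moved the median between -0.117 and -0.0070 for myelin, -0.0430 and -0.0104 for respiratory, -0.0370 and -0.0157 for ribosomal and -0.0765 and -0.00154 for interferon-induced genes.

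**Figure D5:**
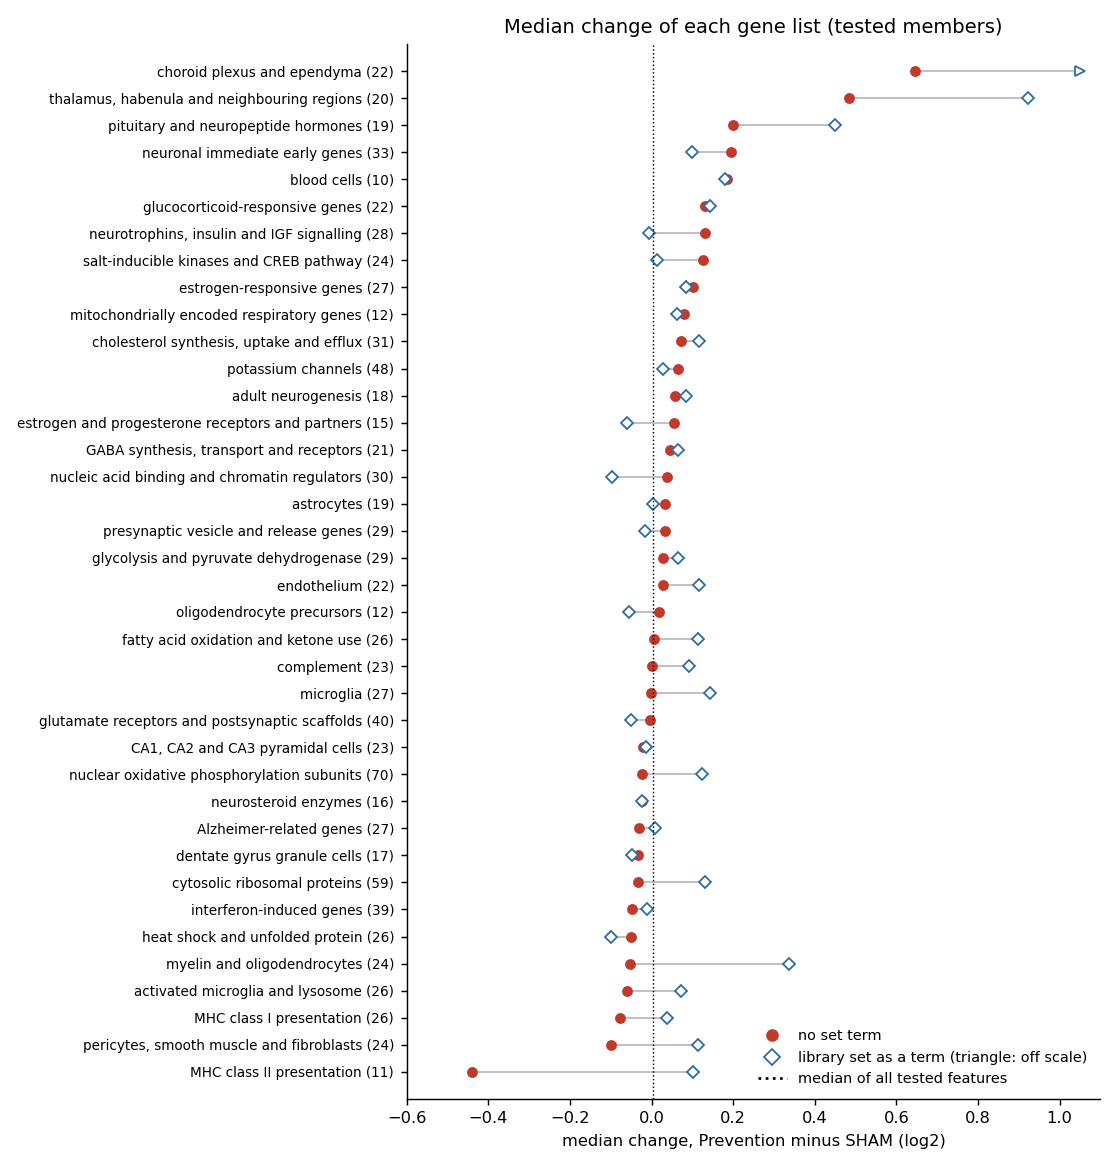
Median log2 change of Prevention against SHAM over the tested members of each of the 38 gene lists (number of tested members in brackets), without the set term (filled circles) and with it (open diamonds); the dotted line is the median of all tested features, 0.0029. Cholesterol genes stay on the positive side in both fits (0.07 and 0.12). So do other lists, such as immediate early (0.19 and 0.10) and glucocorticoid-responsive genes (0.13 and 0.14). Ribosomal (-0.0336 and 0.13), nuclear respiratory (-0.0242 and 0.12) and myelin genes (-0.0537 and 0.34) cross the line. The median changed sign in 14 of the 38 lists.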

How the data were processed

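Per the labels' protocols, hippocampal RNA of female rats was purified by TRIzol, PureLink columns and DNase. The submitters' processing notes name kallisto 0.43 and DESeq2, without a version; the sources used here name no build, annotation or filter. The deposited table holds 1 normalised count per feature and library, a signal in arbitrary units made by the authors; its values are not whole, and totals were 35.4 to 38.8 M (mega). Reads were not recovered, so depth was estimated from each library's smallest step between values, and precision rests on the spread between libraries.

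Groups were taken from the labels. Log2(normalised count + 1) was fitted for all 24 libraries with 1 mean per group in limma 3.58.1 (R 4.3.3), with a mean-variance trend and Benjamini-Hochberg adjustment over the 16119 of 20318 features with a mean of at least 10; a call is an adjusted p under 0.05. Changes are Prevention minus SHAM on this log2 scale, which understates low genes, and means are given ± SD. Of the features, 2378 have no gene symbol (954 of those tested) and 205 share their values with another (0 of the 57 called). Gene positions and promoters are from RefSeq (GRCr8); 47 of the 64 genes looked up had a promoter. The choroid plexus score is the mean log2 value of Ttr, Kl, Folr1, Clic6 and Kcne2, and the thalamic score that of Tcf7l2, Lef1, Prkcd, Slc17a6 and Pou4f1. Named genes were up to 12 called rises and 12 called falls with a mean of at least 50, every called list member, the 2 smallest p of lists described, and genes of interest such as the estrogen receptors, Pgr, Bdnf, Ttr and glial markers; of these the text gives the ones whose role is best known, and some are not reported here. The comparison, the 38 gene lists and the members were chosen with earlier results of these data known. The fit was tested on simulated data. Replicate numbers were not taken as pairs, and the labels used here do not say whether they are. The correlation of same-numbered libraries ran from -0.262 to 0.280, which cannot settle it. Alternatives were pseudocounts of 0.5 and 8, dropping the filter or raising it to 100, quantile and upper quartile scaling, the 2 groups alone, robust and weighted fits, a replicate block, the library set, choroid and thalamic covariates, and leaving out each library. Leaving out the libraries with a thalamic score above 8, or the 2 with LOC257642 above 18, was chosen after seeing the data. Plotting used matplotlib 3.10.9 under Python 3.11.15.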

Additional observations from a re-analysis of the deposited data

Results flagged for a closer look

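Within groups of 5 or 7 libraries, a value was singled out where its gap to the nearest other library, as a share of the group's range, exceeded Dixon's 95% critical value. Chance singles out about 1 in 20 groups, and 9 of 134 were singled out here. Prevention library 3 stood high for LOC257642 (gap 0.959 of the range; 868948 normalised counts, the others 128837 to 159539), LOC500035 (0.946; 68769, the others 10431 to 13561) and Grin2b (0.884; 5850.4, the others 3189 to 3497). Prevention library 2 stood high for Msmo1 (0.823; 4800.4, the others 3916 to 4072) and low for LOC103694865 (0.758; 420.0, the others 774 to 887). SHAM library 7 stood high for Ttr (0.833; 136652, the others 384 to 23186). SHAM library 5 stood high for the thalamic score (0.908; 10.07, the others 6.96 to 7.24), Esrrg (0.71; 1014, the others 559 to 691) and Gabra4 (0.624; 4715, the others 3899.5 to 4206). Without SHAM library 5 the change of Gabra4 was 0.35, and without Prevention library 3 that of Grin2b was 0.29.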

How the results depend on the processing

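Of the 36 called genes named, every one kept its direction under pseudocounts of 0.5 and 8, no filter, both rescalings, robust and weighted fits, the replicate block and each fit without 1 library. The number called was 57, and it was 88 (71 higher) with a mean of at least 100, 156 (104 higher and 52 lower) with Prevention and SHAM alone, 424 (290 and 134) with library weights, and 146 (120 and 26) with the choroid score. It was 4 (3 and 1) with the replicate block, and whether replicate numbers pair the libraries is not known. It was 0 (0 and 0) with the library set, with the set and the choroid score, and without the libraries of thalamic score above 8. With the set and the choroid score 855 had an unadjusted p under 0.05, and the smallest adjusted p was 0.414 in limma. Without the 2 libraries of LOC257642 above 18, 66 (48 higher) were called, with 43 of the 57 among them. Leaving out 1 library gave 10 to 153 (7 to 123 higher and 2 to 31 lower). The other settings gave 46 to 72, and the causes of these differences were not tested.

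Directions that turned among the genes refitted under every setting were these. With the set term the change was -0.0496 for Pcdh10, -0.783 for LOC257642, -0.905 for LOC500035, 0.0745 for Rps24, 0.0195 for Atp5i, 0.0367 for Cd74, 0.340 for RT1-Ba, 0.0891 for S100a1, -0.374 for Esr1, 0.188 for Aif1 and 0.130 for C3. With the set and the choroid score it was -0.0362 for Rdm1, -0.605 for LOC257642, -0.784 for LOC500035, 0.0748 for LOC103689945, 0.0822 for Rps24, 0.0717 for Atp5i, 0.0931 for RT1-Ba, 0.0881 for S100a1, -0.649 for Esr1, 0.185 for Aif1 and 0.00196 for C3. The thalamic covariate gave -0.0197 for Esr1 and 0.00526 for Aif1, the choroid covariate -0.0117 for Ttr, library weights 0.00584 and the replicate block 0.0146 for Esr2. Without the libraries of thalamic score above 8 the change was -0.115 for Esr1 and -0.883 for Ttr, and without those of LOC257642 above 18 it was 0.0283 for Esr2. Leaving out 1 library gave -0.124 to 0.398 for Esr1, -0.202 to 0.0310 for Esr2, -0.0679 to 0.0504 for Aif1 and -0.223 to 0.0213 for C3. Of the genes given further on, where the set term alone was run, Irs2 and Hspe1 turned, to -0.0148 and 0.020. S100a1, an astrocyte gene, had a change of -0.293 (adjusted p = 0.0941) without these terms.

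The main limits are that group and library set coincide, that the set term rests on 2 and 3 Treatment libraries, and that Prevention was estimated to be sequenced more deeply than SHAM. Dosing lasted 5 weeks in Prevention and 7 weeks in SHAM.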

Other observations

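Other gene lists showed no called member but hold values of biological interest. Over all features 0.354% were called, 7.42% were higher at an unadjusted p under 0.05 and 50.9% had a positive change. Of 28 genes of neurotrophin, insulin and IGF signalling 24 had a positive change, 5 with an unadjusted p under 0.05, and the median was 0.13, but -0.00581 with the set term. Pik3ca, a catalytic subunit of PI3-kinase, averaged 3837 ± 180 in Prevention and 3444 ± 281 in SHAM (0.16, adjusted p = 0.176; set-adjusted 0.021). Irs2, an adaptor of the insulin receptor, averaged 4209 ± 178 and 3858 ± 170 (0.13, adjusted p = 0.282; set-adjusted -0.0148). Of 48 potassium channel genes 34 were positive, with a median of 0.064, and 0.028 with the set term. Hcn2, a pacemaker channel, averaged 4884 ± 765 in Prevention and 4021 ± 542 in SHAM (0.28, adjusted p = 0.205; set-adjusted 0.30).

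Bace1, the beta-secretase that starts amyloid formation, averaged 3066 ± 123 in Prevention and 3371 ± 134 in SHAM (-0.137, adjusted p = 0.0806; set-adjusted -0.0975), among 27 Alzheimer-related genes of which 12 were positive and 0 called. Hadhb, of mitochondrial fatty acid oxidation, averaged 3714 ± 201 and 3340 ± 187 (0.15, adjusted p = 0.0852; set-adjusted 0.12). In the heat shock list 19 of 26 changes were negative and 0 were called (50.9% positive and 0.354% called over all features). Hspa8, a constitutive chaperone, averaged 4005 ± 165 in Prevention and 3328 ± 402 in SHAM (0.27, adjusted p = 0.124; set-adjusted 0.041), and Hspe1, a mitochondrial co-chaperone, 949.7 ± 85.5 and 1127 ± 71.2 (-0.248, adjusted p = 0.153; set-adjusted 0.020). Purb, a binder of single-stranded DNA and RNA, averaged 4479 ± 227 and 3437 ± 294 without overlap (0.39, adjusted p = 0.0941), and its set-adjusted change was 0.025. Hbb of red blood cells ran from 1176 to 2428 in Prevention and from 769 to 1512 in SHAM, and Prl of the pituitary from 2.77 to 37.2 and from 0 to 6.48.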
